A study of Mus musculus with 24 samples.

Results

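CD31- stroma of the mouse small intestine was compared by the activity of an Rspo3 GFP transgene. Rspo3+ cells were set against Rspo3- cells, with 3 libraries in each group and 6 of the 24 libraries of the series in all. All libraries came from Epcam-, CD45- cells of mice on a C57Bl6 background, aged 8 to 12 weeks. CD31 is an endothelial surface protein encoded by Pecam1. Besides CD31- Rspo3+ and CD31- Rspo3- cells of the small intestine, the same fractions of the colon and the CD31+ Rspo3+ and CD31+ Rspo3- cells of the small intestine were used, with 3 libraries each, to ask where the small intestinal CD31- difference departed from theirs. The groups are sorted bulk populations named by surface proteins and transgene signal. The labels tie none of the replicate libraries to its own animal. The p-values therefore reflect how far libraries spread within groups, estimated over all 24 libraries of the series, and that spread could be technical.

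R-spondins are secreted proteins that bind Lgr receptors on epithelial stem cells. They shield Frizzled receptors from the ubiquitin ligases Rnf43 and Znrf3 and so amplify Wnt signals. Stromal cells beneath the crypt supply R-spondins together with BMP antagonists such as Grem1, whereas stromal cells nearer the villus supply BMP ligands that promote differentiation. Fibroblasts around the crypt base are commonly described as Pdgfra-low and express Cd81, Ackr4 and Grem1. Subepithelial fibroblasts with high Pdgfra express Foxl1, Bmp5, Bmp7 and Wnt4.

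Levels are CPM, estimated counts scaled to TMM-adjusted library totals, unless stated, and libraries are listed in the order 1, 2, 3 within a group. A gene is said to have risen or fallen when edgeR's quasi-likelihood test gave a Benjamini-Hochberg adjusted p below 0.05 over all 19050 genes tested. Log2 fold changes are Rspo3+ over Rspo3-. Their SE is the size of the log2 fold change divided by the square root of the test's F value. The transcript of Rspo3 (ENSMUSG00000019880, chromosome 10, 29452416 to 29535867 on GRCm38) stood at 327, 273 and 332 CPM in the Rspo3+ libraries, against 16.5, 16.4 and 13.1 CPM in the Rspo3- libraries (log2 fold change 4.34 ± 0.25 SE, adjusted p = 1.49e-09), which checks the sort and is no finding. Pecam1 was low in both groups, at 11.3, 19.6 and 13.7 CPM in Rspo3+ and 10.7, 16.3 and 13.0 CPM in Rspo3- cells (adjusted p = 0.754). For comparison it averaged 421 ± 68.3 CPM in Rspo3+ and 1133 ± 83.6 CPM in Rspo3- cells of the CD31+ gate.

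The libraries differed in more than the transgene. Estimated counts summed to 29214487, 22442246 and 24363896 in the Rspo3+ libraries, against 26830199, 10999032 and 18910186 in the Rspo3- libraries. Mitochondrial transcripts took 1.27%, 0.922% and 0.690% of counts in Rspo3+ and 3.49%, 2.67% and 4.82% in Rspo3- libraries. Although all cells were sorted as Epcam-, the Epcam transcript stood at 6.62, 21.8 and 23.6 CPM in Rspo3+ and 594, 686 and 1069 CPM in Rspo3- libraries, and the summed level of 14 enterocyte markers was 193 to 722 CPM in Rspo3+ and 20474 to 39305 CPM in Rspo3- libraries. The summed level of 14 pan-fibroblast genes went the other way, with 97743 to 110870 CPM in Rspo3+ and 19662 to 26865 CPM in Rspo3- libraries. In bulk samples, fewer cells of a type and less RNA per cell cannot be told apart. The part of these other cells in the differences below was not tested. The Rspo3+ against Rspo3- difference in these 6 libraries was also read after rescaling them to an equal geometric mean of the pan-fibroblast genes, called here the pan-fibroblast scale, or values per unit of pan-fibroblast RNA.

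Across all genes, 3064 rose in Rspo3+ cells and 2732 fell, which is 16.1% and 14.3% of those tested, or 30.4% in either direction. Without Rspo3+ library 3, 1687 genes rose. Relative to pan-fibroblast RNA, 226 genes rose (1.19%) and 12788 fell (67.1%), and the median log2 fold change of all genes, 0.11 per library total, shifted by -1.53. The libraries did not overlap, with Rspo3+ above, for 28.0% of genes, and with Rspo3- above for 22.6%. The gene lists described next hold 516 different genes that passed the filter on low counts, and their members are read against these shares.

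All 3 R-spondins that could be tested rose in Rspo3+ cells, where 16.1% of all genes rose. Rspo3 is 1 of the 3 and only checks the sort. Rspo2 stood at 70.4, 66.9 and 63.1 CPM in the Rspo3+ libraries, against 4.81, 7.11 and 3.46 CPM in the Rspo3- libraries (log2 fold change 3.71 ± 1.00 SE, adjusted p = 0.00781). The groups did not overlap. The ratio was 13.8-fold for counts pooled over each group, scaled to its pooled library totals. Ratios in folds below, unlike log2 fold changes, are pooled in this way. Rspo1 was at 29.4, 26.2 and 33.4 CPM in Rspo3+ and 5.64, 5.87 and 4.43 CPM in Rspo3- libraries (log2 fold change 2.48 ± 0.86 SE, adjusted p = 0.0331). Its groups did not overlap either, but the call was lost without any 1 of the 6 libraries (adjusted p up to 0.312 over all alternatives). Per transcript length, Rspo3 was the most abundant of the family at 136 ± 13.6 TPM (mean ± SD, n = 3) in Rspo3+ cells, against 6.72 ± 1.44 TPM in Rspo3- cells. Rspo2 averaged 28.6 ± 2.02 TPM in Rspo3+ and 2.23 ± 0.926 TPM in Rspo3- cells, and Rspo1 22.9 ± 2.41 TPM in Rspo3+ and 4.07 ± 0.935 TPM in Rspo3- cells. On the pan-fibroblast scale, Rspo3 still rose (log2 fold change 2.81 ± 0.24 SE, adjusted p = 9.7e-09), while Rspo2 (2.17 ± 0.99 SE, adjusted p = 0.0588) and Rspo1 (0.96 ± 0.83 SE, adjusted p = 0.312) kept a positive sign and did not pass.

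Of the receptors and ubiquitin ligases of the pathway, Lgr5 rose, Lgr4 fell, and Rnf43 and Znrf3 did not pass. Lgr4, a broadly expressed R-spondin receptor, stood at 11.8, 10.9 and 13.1 CPM in Rspo3+ and 30.4, 28.2 and 39.6 CPM in Rspo3- libraries (log2 fold change -1.45 ± 0.27 SE, adjusted p = 0.000395). Every Rspo3+ library was below every Rspo3- library. Lgr5, the stem cell receptor, was scarce, with 1.21, 0.697 and 0.535 CPM in Rspo3+ and 0.0692, 0 and 0.0541 CPM in Rspo3- libraries, a ratio of 16.7-fold (counting interval 5.43 to 83.7, adjusted p = 0.00944). That 95% interval, like all counting intervals and floors below, covers counting error only.

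Wnt ligands rose and fell within 1 family. Wnt9a, Wnt2 and Wnt11 rose, Wnt4 fell, and 7 of the 11 tested did not pass, where 16.1% of all genes rose and 14.3% fell. Wnt9a reached 44.6, 41.6 and 39.1 CPM in the Rspo3+ libraries, against 5.75, 5.45 and 3.46 CPM in the Rspo3- libraries (log2 fold change 3.09 ± 0.62 SE, adjusted p = 0.000731). Wnt2 was much scarcer, with 1.58, 4.34 and 2.92 CPM in Rspo3+ and 0.173, 0.826 and 0.0541 CPM in Rspo3- libraries (log2 fold change 3.31 ± 0.66 SE, adjusted p = 0.000695). Neither gene's groups overlapped, and both still rose per unit of pan-fibroblast RNA (1.57 and 1.80 in log2). Wnt11, named after its values were seen, had 19.8, 22.9 and 26.7 CPM in Rspo3+ and 4.53, 6.61 and 4.76 CPM in Rspo3- libraries (adjusted p = 0.0108) and lost its call without Rspo3+ library 3 (adjusted p up to 0.382 over all alternatives). Wnt4, a ligand of subepithelial cells, went the other way at 12.8, 6.49 and 4.76 CPM in Rspo3+ and 40.1, 36.4 and 29.3 CPM in Rspo3- libraries (log2 fold change -2.13 ± 0.54 SE, adjusted p = 0.00492). Its Rspo3+ library 1 was the highest of that group and still under the lowest Rspo3- library. Wnt5a, a ligand of the branch that does not use beta-catenin, had 61.8, 60.3 and 48.7 CPM in Rspo3+ and 46.6, 17.3 and 27.4 CPM in Rspo3- libraries and did not pass (adjusted p = 0.28, named after its values were seen).

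Secreted Wnt antagonists also went both ways, with 2 of 9 higher, 2 lower and 5 that did not pass. The shares of all genes were 16.1% higher and 14.3% lower. Dkk2, which binds the Lrp co-receptors of Wnt, stood at 172, 137 and 156 CPM in Rspo3+ and 24.7, 17.4 and 17.4 CPM in Rspo3- libraries (log2 fold change 2.96 ± 0.57 SE, adjusted p = 0.00055). The Wnt-binding proteins Sfrp5 and Frzb fell. Sfrp5 had 0.444, 0.697 and 0 CPM in Rspo3+ and 6.78, 9.83 and 6.76 CPM in Rspo3- libraries (log2 fold change -4.34 ± 0.91 SE, adjusted p = 0.00113). Frzb had 6.91, 6.87 and 8.46 CPM in Rspo3+ and 48.4, 49.7 and 39.1 CPM in Rspo3- libraries (log2 fold change -2.62 ± 0.80 SE, adjusted p = 0.0166), with no overlap for either gene. Without Rspo3+ library 1 or 2, Frzb no longer passed (adjusted p up to 0.0596 over all alternatives), and without Rspo3+ library 2 or 3 or Rspo3- library 1 or 3 only Dkk2 of the list rose. Sfrp1, a Wnt-binding protein named after its values were seen, was the most abundant antagonist per length in both groups, at 941 ± 194 TPM in Rspo3+ and 361 ± 98.7 TPM in Rspo3- cells, and did not pass (adjusted p = 0.0592). It rose with DESeq2, with limma voom and in the fit on the 6 compared libraries (adjusted p from 0.00245 to 0.803 over all alternatives).

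Of 12 BMP antagonists, 5 rose in Rspo3+ cells, 1 fell and 6 did not pass, where 16.1% of all genes rose and 14.3% fell. Per unit of pan-fibroblast RNA, 2 of the 5 still rose. Grem1 (ENSMUSG00000074934, chromosome 2, 113746164 to 113758646) stood at 972, 931 and 749 CPM in the Rspo3+ libraries, against 56.0, 47.2 and 40 CPM in the Rspo3- libraries (log2 fold change 4.21 ± 0.72 SE, adjusted p = 0.000169). It separated the groups fully and still rose per unit of pan-fibroblast RNA (2.67 ± 0.66 SE, adjusted p = 0.00149). Chrdl1, a chordin-like BMP binder, had 81.4, 82.5 and 75.3 CPM in Rspo3+ and 9.48, 9.09 and 4.76 CPM in Rspo3- libraries (adjusted p = 0.0105). Fst, which binds activins and some BMPs, had 38.8, 24.6 and 38.9 CPM in Rspo3+ and 4.22, 4.79 and 5.68 CPM in Rspo3- libraries (adjusted p = 0.0119). Their groups did not overlap either. After rescaling to pan-fibroblast genes, Chrdl1 and Fst did not pass, and the follistatin-like Fstl3, which rose per library total, turned to a log2 fold change of -0.52. Chrdl1, Fst and Fstl3 were named after their values were seen.

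The antagonist that fell was Sostdc1, which acts on BMP and Wnt signals, with 0.404, 1.02 and 1.75 CPM in Rspo3+ and 21.1, 20.8 and 13.4 CPM in Rspo3- libraries (log2 fold change -4.12 ± 0.62 SE, adjusted p = 4.99e-05). Its highest Rspo3+ library was below its lowest Rspo3- library. Without Rspo3+ library 3 or Rspo3- library 3, 3 of the 12 antagonists rose in place of 5. Chrdl1 lost its call without Rspo3- library 3, Fst without Rspo3+ library 3, and Fstl3 without these libraries or Rspo3- library 2 (adjusted p up to 0.0816, 0.169 and 0.0747 over all alternatives). These 3 were named after their values were seen. Per length, Grem1 averaged 285 ± 43.0 TPM in Rspo3+ cells, against 15.4 ± 3.77 TPM in Rspo3- cells.

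The ligands did not mirror their antagonists uniformly. Of 6 BMP ligands, Bmp5 and Bmp3 fell and 4 did not pass. Bmp5, a ligand of villus and subepithelial stroma, had 25.2, 28.2 and 18.5 CPM in Rspo3+ and 119, 90.0 and 82.6 CPM in Rspo3- libraries (log2 fold change -2.02 ± 0.47 SE, adjusted p = 0.00269). Bmp3, a BMP with antagonist activity, had 7.23, 8.58 and 2.58 CPM in Rspo3+ and 29.4, 24.9 and 20.3 CPM in Rspo3- libraries (log2 fold change -2.02 ± 0.73 SE, adjusted p = 0.0421). The groups of both genes were apart, but leaving out any 1 of the 6 libraries took Bmp3 above the threshold (adjusted p up to 0.129 over all alternatives) and left 1 ligand that fell. Bmp7 had 18.1, 13.9 and 8.50 CPM in Rspo3+ and 60.3, 39.2 and 30.5 CPM in Rspo3- libraries, did not overlap and did not pass (adjusted p = 0.0642). It passed as a fall with DESeq2, with limma voom, with no filter, in the fit on the 6 compared libraries and on the pan-fibroblast scale (adjusted p from 0.000409 to 0.188 over all alternatives). DESeq2 and the fit on the 6 libraries each gave 4 BMP ligands that fell in place of 2. Bmp4, the most abundant ligand per length in both groups, overlapped at 185, 199 and 220.2 CPM in Rspo3+ and 207, 215 and 154 CPM in Rspo3- libraries (log2 fold change 0.07 ± 0.37 SE, adjusted p = 0.919). Bmp4 was named after its values were seen. The enterocyte markers moved with these falls, as did mesothelial and glial markers given further on, and their part was not tested.

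In the wider TGF-beta family, 3 of 12 genes rose (16.1% of all genes) and the other 9 did not pass. Tgfb3, 1 of the TGF-beta ligands, was even across libraries at 478, 485 and 491 CPM in Rspo3+ and 110.5, 99.9 and 81.3 CPM in Rspo3- libraries (log2 fold change 2.32 ± 0.28 SE, adjusted p = 4.54e-06), and it still rose per unit of pan-fibroblast RNA (0.79 in log2). Ltbp3 and Ltbp4, which hold latent TGF-beta in the matrix, had log2 fold changes of 1.35 (adjusted p = 0.00109) and 0.78 (adjusted p = 0.0386). Both signs flipped per unit of pan-fibroblast RNA, to -0.19 and -0.76. Ltbp4 lost its call with DESeq2-type size factors, with no filter and without 5 of the 6 libraries (adjusted p up to 0.153 over all alternatives).

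**Figure D1:**
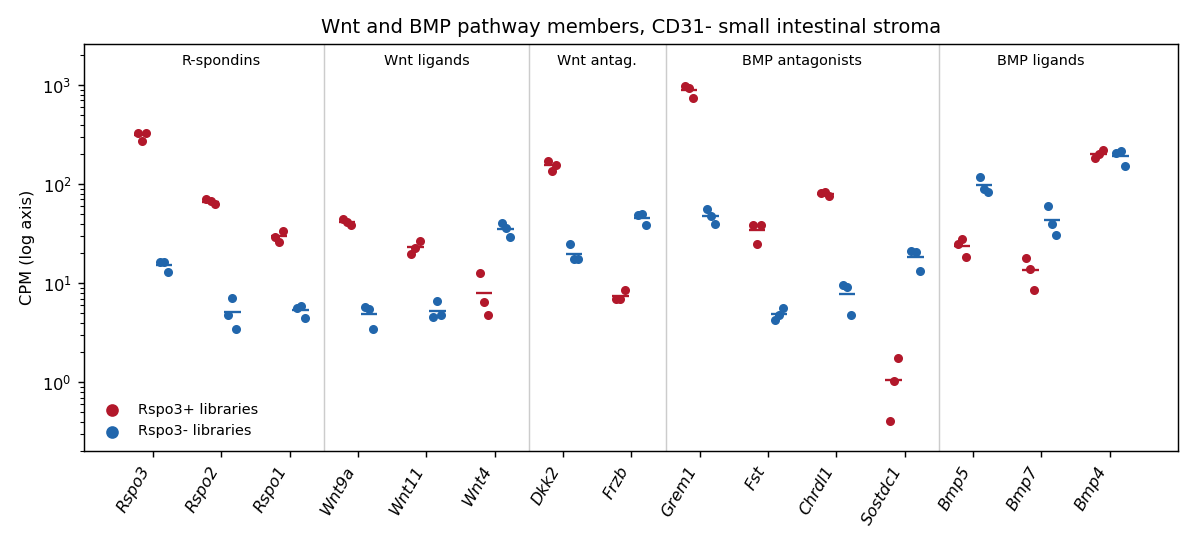
CPM on a log axis of Wnt and BMP pathway members in each small intestinal CD31- library, Rspo3+ (red, left) beside Rspo3- (blue, right), with a bar at each group's mean (n = 3 each). Rspo3, Rspo2, Rspo1, Wnt9a, Wnt11, Dkk2, Grem1, Fst and Chrdl1 sit higher in every Rspo3+ library, Wnt4, Frzb, Sostdc1, Bmp5 and Bmp7 sit lower, and Bmp4 overlaps.

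The marker lists of fibroblast types separated in a similar way. Of 16 genes attributed to Pdgfra-low Grem1+ fibroblasts, 14 rose and 2 did not pass (median log2 fold change 2.37). Rspo3 and Grem1 belong to that list. Cd34, a sialomucin of fibroblasts and endothelium, stood at 1509, 1528 and 1697 CPM in Rspo3+ and 355, 369 and 266 CPM in Rspo3- libraries (log2 fold change 2.26 ± 0.24 SE, adjusted p = 1.26e-06). Cd81, a tetraspanin marker of these cells, had 613, 586 and 699 CPM in Rspo3+ and 127, 186 and 183 CPM in Rspo3- libraries (log2 fold change 1.94 ± 0.29 SE, adjusted p = 4.26e-05). Every Rspo3+ library lay above every Rspo3- library for both genes. Ackr4, a scavenging receptor for Ccl19 and Ccl21, was among the largest rises of the list, with 1385, 1332 and 946 CPM in Rspo3+ and 42.7, 75.9 and 47.3 CPM in Rspo3- libraries (log2 fold change 4.47 ± 0.77 SE, adjusted p = 0.000184). Pcolce2, an enhancer of procollagen processing, had 427, 424 and 434 CPM in Rspo3+ and 29.5, 31.6 and 29.7 CPM in Rspo3- libraries (log2 fold change 3.82 ± 0.62 SE, adjusted p = 9.81e-05). Both genes were apart in every library. Ackr4 and Pcolce2 were named after their values were seen. Per unit of pan-fibroblast RNA, 8 of the 14 still rose, 5 were positive without passing and 1, Il33, was negative (-0.19).

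Genes of Pdgfra-high subepithelial fibroblasts fell, with 9 of 14 lower and 5 that did not pass (median log2 fold change -2.06). Dll1, a Notch ligand, stood at 23.5, 20.9 and 21.5 CPM in Rspo3+ and 54.5, 46.4 and 68.1 CPM in Rspo3- libraries (log2 fold change -1.36 ± 0.27 SE, adjusted p = 0.00067). Sfrp5 and Bmp5, given above, were next by adjusted p. Pdgfra itself, named after its values were seen, ran against the list's name at 684, 878 and 579 CPM in Rspo3+ and 467, 428 and 352 CPM in Rspo3- libraries. It was higher in each Rspo3+ library, did not pass (log2 fold change 0.78 ± 0.60 SE, adjusted p = 0.357), and took the opposite sign per unit of pan-fibroblast RNA (-0.77). Foxl1, the transcription factor that marks subepithelial telocytes, had 1.01, 0 and 0 CPM in Rspo3+ and 8.41, 6.94 and 4.43 CPM in Rspo3- libraries (adjusted p = 0.0392). Foxl1 lost its call with DESeq2 and without 5 of the 6 libraries (adjusted p up to 0.125 over all alternatives). Without Rspo3+ library 2, 5 of the 14 fell in place of 9. All 9 also fell per unit of pan-fibroblast RNA.

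Adventitial fibroblast genes, which mark cells around vessels, mostly rose: 8 of 12 did, 1 fell and 3 did not pass. Ly6c1 stood at 159, 103 and 94.4 CPM in Rspo3+ and 25.0, 22.5 and 18.5 CPM in Rspo3- libraries (log2 fold change 2.43 ± 0.32 SE, adjusted p = 1.08e-05), and Ly6a, another Ly6 surface protein of stroma and endothelium, at 982, 743 and 681 CPM in Rspo3+ and 259, 179.6 and 153 CPM in Rspo3- libraries (log2 fold change 2.02 ± 0.31 SE, adjusted p = 5.16e-05). Both are also made by endothelium, whose summed markers were 177 to 229 CPM in Rspo3+ and 79.6 to 98.2 CPM in Rspo3- libraries, and their part was not tested. Pi16, a peptidase inhibitor of adventitial fibroblasts named after its values were seen, had 126, 112 and 92.0 CPM in Rspo3+ and 16.3, 15.4 and 14.8 CPM in Rspo3- libraries (log2 fold change 2.82 ± 0.57 SE, adjusted p = 0.00078). The gene that fell was Dpp4, at 5.90, 9.17 and 11.6 CPM in Rspo3+ and 305, 267 and 447 CPM in Rspo3- libraries (log2 fold change -5.26 ± 0.58 SE, adjusted p = 1.68e-06). Dpp4 also encodes a peptidase of the enterocyte brush border, and the enterocyte marker sum was 20474 to 39305 CPM in the same Rspo3- libraries. Of the 8 that rose, 3 still did per unit of pan-fibroblast RNA and 5 were positive without passing.

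The pan-fibroblast list, with 8 of 14 higher and 6 that did not pass, was led by Lox, an enzyme that crosslinks collagen. It stood at 516, 556 and 467 CPM in Rspo3+ and 63.8, 68.6 and 59.5 CPM in Rspo3- libraries (log2 fold change 3.00 ± 0.45 SE, adjusted p = 4.48e-05). Serpinf1, a secreted serpin, had 522, 559 and 668 CPM in Rspo3+ and 105, 119 and 80.5 CPM in Rspo3- libraries (log2 fold change 2.52 ± 0.42 SE, adjusted p = 0.000125). Fstl1, a secreted glycoprotein, had a log2 fold change of 1.00 (adjusted p = 0.000523), which flipped to -0.53 per unit of pan-fibroblast RNA. That scaling rests on this list's own geometric mean, so its members then lie around zero by construction.

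Growth factors that act on epithelium went both ways, with 3 of 14 higher, 5 lower and 6 that did not pass. The shares of all genes were 16.1% higher and 14.3% lower. Fgf7, a ligand for the epithelial receptor Fgfr2b, rose to 71.6, 68.1 and 85.7 CPM in the Rspo3+ libraries, against 8.96, 6.53 and 7.51 CPM in the Rspo3- libraries (log2 fold change 3.29 ± 0.66 SE, adjusted p = 0.000737). It was apart in every library and still rose per unit of pan-fibroblast RNA (1.76 in log2). Of the 6 EGF receptor ligands in the list, Hbegf, Areg and Tgfa fell, and Ereg, Btc and Egf did not pass. Hbegf had 34.9, 30.1 and 34.1 CPM in Rspo3+ and 168, 145 and 246 CPM in Rspo3- libraries (log2 fold change -2.50 ± 0.35 SE, adjusted p = 2.61e-05), and Areg had 6.75, 9.33 and 14 CPM in Rspo3+ and 231, 189 and 581 CPM in Rspo3- libraries (log2 fold change -5.06 ± 0.97 SE, adjusted p = 0.000507). Tgfa, named after its values were seen, had 0, 0 and 0.535 CPM in Rspo3+ and 5.54, 3.06 and 9.84 CPM in Rspo3- libraries (adjusted p = 0.00331). For all 3 ligands library 3 was the highest of the Rspo3- group, which was also the library with the highest enterocyte marker sum. Whether epithelial RNA contributed was not tested. Without Rspo3+ library 1 or Rspo3- library 2, 1 of the growth factors rose in place of 3.

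In the IGF system, 3 of 8 genes were higher, 2 were lower and 3 did not pass, and those that passed all encode binding proteins. The shares of all genes were 16.1% higher and 14.3% lower. Of the 3 that rose, 1 still rose per unit of pan-fibroblast RNA and 2 turned negative. Igfbp3 stood at 233, 245 and 169 CPM in Rspo3+ and 1193, 1080.1 and 1232 CPM in Rspo3- libraries (log2 fold change -2.44 ± 0.38 SE, adjusted p = 7.56e-05). Igfbp6, which prefers IGF-II, went the other way at 306, 304 and 331 CPM in Rspo3+ and 48.3, 59.3 and 44.5 CPM in Rspo3- libraries (log2 fold change 2.63 ± 0.49 SE, adjusted p = 0.000415). Both separated the groups in every library. Igfbp7 had 5355, 5236 and 5678 CPM in Rspo3+ and 2516, 2032 and 1809 CPM in Rspo3- libraries (log2 fold change 1.36 ± 0.26 SE, adjusted p = 0.000451), with the sign flipped to -0.17 per unit of pan-fibroblast RNA. The ligand Igf1, named after its values were seen, had 295, 293 and 287 CPM in Rspo3+ and 171, 138 and 136 CPM in Rspo3- libraries and did not pass (adjusted p = 0.0581), but rose with limma voom and in the fit on the 6 compared libraries (adjusted p from 0.00305 to 0.197 over all alternatives). Without Rspo3- library 1, 1 gene of the list fell in place of 2.

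Vascular growth factors rose more often than they fell, with 7 of 14 higher, 4 lower and 3 that did not pass. Vegfd, a ligand of the lymphatic receptor Vegfr3 (encoded by Flt4), stood at 46.5, 46.5 and 50.5 CPM in Rspo3+ and 4.46, 3.39 and 5.73 CPM in Rspo3- libraries (log2 fold change 3.39 ± 0.36 SE, adjusted p = 9.78e-07). Vegfc, the other ligand of that receptor, had 79.8, 71.6 and 70.3 CPM in Rspo3+ and 25.2, 22.9 and 18.1 CPM in Rspo3- libraries (log2 fold change 1.74 ± 0.36 SE, adjusted p = 0.00107). The groups of both were apart. Among the platelet-derived growth factors, Pdgfd rose, with 81.8, 89.0 and 89.8 CPM in Rspo3+ and 21.0, 25.0 and 18.7 CPM in Rspo3- libraries (log2 fold change 2.01 ± 0.19 SE, adjusted p = 2.93e-07). Pdgfa, a ligand made by epithelium in the gut, fell, with 14.2, 12.8 and 14.8 CPM in Rspo3+ and 52.5, 44.2 and 69.5 CPM in Rspo3- libraries (log2 fold change -1.99 ± 0.21 SE, adjusted p = 8.33e-07). Angpt1, the ligand of Tek, had 40.4, 35.4 and 33.6 CPM in Rspo3+ and 13.9, 6.11 and 6.43 CPM in Rspo3- libraries (log2 fold change 2.04 ± 0.33 SE, adjusted p = 9.48e-05). Relative to pan-fibroblast RNA, Vegfd (1.83) and Pdgfd (0.47) still rose, while Vegfc (0.21) and Angpt1 (0.54) were positive without passing. Vegfc and Angpt1 were named after their values were seen.

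Of 16 chemokines, 7 rose (16.1% of all genes), 4 fell (14.3% of all genes) and 5 did not pass. Ccl21a, which attracts Ccr7+ leukocytes to lymphatic vessels, stood at 111, 274 and 200.4 CPM in Rspo3+ and 5.47, 2.73 and 2.70 CPM in Rspo3- libraries (log2 fold change 5.72 ± 0.43 SE, adjusted p = 4.18e-08). Near-identical copies of the gene make this level uncertain. Rspo3+ library 2 was the highest, as it was for the lymphatic markers given further on, and their part was not tested. Cxcl13, which attracts B cells, had 524, 638 and 811 CPM in Rspo3+ and 72.5, 111 and 64.3 CPM in Rspo3- libraries (log2 fold change 2.99 ± 0.64 SE, adjusted p = 0.00132). Ccl19, the other Ccr7 ligand, had 33.1, 50.0 and 60.1 CPM in Rspo3+ and 8.34, 5.45 and 2.76 CPM in Rspo3- libraries (log2 fold change 3.11 ± 0.84 SE, adjusted p = 0.00776). These 3 genes were apart in every library. Cx3cl1, a membrane-bound chemokine, fell to 4.69, 4.56 and 2.58 CPM in the Rspo3+ libraries, against 62.6, 69.7 and 96.2 CPM in the Rspo3- libraries (log2 fold change -4.27 ± 0.43 SE, adjusted p = 6.29e-07). Cxcl14 also fell, with 22.1, 21.5 and 17.4 CPM in Rspo3+ and 123, 113 and 99.8 CPM in Rspo3- libraries (log2 fold change -2.46 ± 0.51 SE, adjusted p = 0.00104).

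Ccl11, the eosinophil attractant eotaxin, was at 472, 500.1 and 489 CPM in Rspo3+ and 1072, 1029 and 784 CPM in Rspo3- libraries (log2 fold change -0.98 ± 0.30 SE, adjusted p = 0.0173), and lost its call without Rspo3+ library 1 or Rspo3- library 1 (adjusted p up to 0.0567 over all alternatives). Cxcl12, which retains Cxcr4+ cells, had 1561, 1723 and 2112 CPM in Rspo3+ and 1078, 911 and 807 CPM in Rspo3- libraries (log2 fold change 0.95 ± 0.32 SE, adjusted p = 0.0289). It lost its call with DESeq2-type size factors and without 4 of the 6 libraries (adjusted p up to 0.207 over all alternatives), and its sign flipped per unit of pan-fibroblast RNA (-0.57). Of the 7 chemokines that rose, Ccl21a and Cxcl13 still rose on that scale, Ccl19 was positive without passing and 4 were negative. Cxcl13, Ccl19, Ccl11 and Cxcl12 were named after their values were seen.

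Of 13 cytokines, 4 rose (16.1% of all genes), 3 fell (14.3% of all genes) and 6 did not pass. Il6 stood at 307, 286 and 302 CPM in Rspo3+ and 46.6, 48.3 and 61.0 CPM in Rspo3- libraries (log2 fold change 2.52 ± 0.38 SE, adjusted p = 5.19e-05), the only cytokine of the list that still rose per unit of pan-fibroblast RNA (0.95). Tslp, an epithelial and stromal alarmin, had 13.2, 10.2 and 11.9 CPM in Rspo3+ and 3.95, 4.96 and 3.08 CPM in Rspo3- libraries (log2 fold change 1.56 ± 0.28 SE, adjusted p = 0.000286). Il33, a nuclear alarmin, was even within groups at 459, 459.6 and 524 CPM in Rspo3+ and 184, 186 and 190.3 CPM in Rspo3- libraries (log2 fold change 1.36 ± 0.29 SE, adjusted p = 0.00122), and took the opposite sign per unit of pan-fibroblast RNA. Among those that fell, Il34, a ligand of the macrophage receptor Csf1r, had 11.5, 12.3 and 13.7 CPM in Rspo3+ and 46.7, 53.9 and 33.6 CPM in Rspo3- libraries (log2 fold change -1.84 ± 0.29 SE, adjusted p = 9.22e-05). Kitl, the ligand of Kit, had 14.6, 14.6 and 13.3 CPM in Rspo3+ and 52.6, 59.4 and 47.1 CPM in Rspo3- libraries (log2 fold change -1.91 ± 0.36 SE, adjusted p = 0.000439), and the lymphocyte cytokine Il15 had 11, 7.19 and 10.2 CPM in Rspo3+ and 24.1, 18.0 and 31.6 CPM in Rspo3- libraries (adjusted p = 0.00122). No gene of these 6 overlapped between groups. Il33, Kitl and Il15 were named after their values were seen.

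Complement genes rose as a group: 7 of 12 did and the other 5 did not pass (median log2 fold change 1.67). C3, the central component, stood at 5371, 5907 and 3680 CPM in Rspo3+ and 629.5, 510.2 and 437 CPM in Rspo3- libraries (log2 fold change 3.25 ± 0.61 SE, adjusted p = 0.000419). Cfb, of the alternative pathway, had 721, 874 and 845 CPM in Rspo3+ and 186, 237 and 187 CPM in Rspo3- libraries (log2 fold change 2.00 ± 0.29 SE, adjusted p = 3.78e-05). Serping1, the C1 inhibitor, had 7147, 7125 and 7933 CPM in Rspo3+ and 2184, 2234 and 1665 CPM in Rspo3- libraries (log2 fold change 1.87 ± 0.29 SE, adjusted p = 5.9e-05). The protease C1ra had a log2 fold change of 1.92 (adjusted p = 0.000218). The macrophage-derived C1qa, C1qb and C1qc did not pass and overlapped between the groups. On the pan-fibroblast scale, C3 still rose (1.70) and the other 6 were positive without passing. C3, C1qa, C1qb and C1qc were named after their values were seen.

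Retinoic acid enzymes divided, with 2 of 8 higher (16.1% of all genes), 2 lower (14.3% of all genes) and 4 that did not pass. Rdh10, which oxidizes retinol, stood at 55.7, 60.9 and 52.9 CPM in Rspo3+ and 321, 348 and 233 CPM in Rspo3- libraries (log2 fold change -2.41 ± 0.26 SE, adjusted p = 1.5e-06). Aldh1a3, which makes retinoic acid and was named after its values were seen, had 181, 236 and 191 CPM in Rspo3+ and 845, 763 and 692 CPM in Rspo3- libraries (log2 fold change -1.92 ± 0.48 SE, adjusted p = 0.00465). Dhrs3, which reduces retinal back to retinol, rose, with 139, 174 and 244 CPM in Rspo3+ and 39.8, 46.3 and 46.5 CPM in Rspo3- libraries (log2 fold change 2.07 ± 0.28 SE, adjusted p = 1.48e-05). All 3 genes were apart in every library. Dhrs3 did not pass per unit of pan-fibroblast RNA (0.53, adjusted p = 0.114).

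In prostaglandin synthesis, 2 of 9 genes rose (16.1% of all genes), 2 fell (14.3% of all genes) and 5 did not pass. Ptgs1, the constitutive cyclooxygenase, had 37.9, 44.9 and 45.3 CPM in Rspo3+ and 143, 130.5 and 107 CPM in Rspo3- libraries (log2 fold change -1.57 ± 0.24 SE, adjusted p = 5.37e-05), and Ptges2, a prostaglandin E synthase, had a log2 fold change of -1.08 (adjusted p = 0.011). Hpgd, which degrades prostaglandin E2, had 616, 557 and 585 CPM in Rspo3+ and 138, 128 and 275 CPM in Rspo3- libraries (log2 fold change 1.70 ± 0.59 SE, adjusted p = 0.0343), and lost its call with DESeq2-type size factors, without 5 of the 6 libraries and on the pan-fibroblast scale (0.10, adjusted p = 0.895, the highest over all alternatives). In each fit without 1 library, at most 1 gene of the list rose.

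Of 13 Hedgehog receptors and targets, 3 rose (16.1% of all genes), 1 fell (14.3% of all genes) and 9 did not pass. The co-receptor Boc stood at 170.3, 163 and 138 CPM in Rspo3+ and 25.3, 26.4 and 23.0 CPM in Rspo3- libraries (log2 fold change 2.66 ± 0.30 SE, adjusted p = 2.43e-06), and it still rose per unit of pan-fibroblast RNA (1.10). The co-receptor Gas1 had 315, 328 and 275 CPM in Rspo3+ and 101, 78.4 and 84.8 CPM in Rspo3- libraries (log2 fold change 1.80 ± 0.42 SE, adjusted p = 0.00276), and did not pass on that scale (0.25, adjusted p = 0.596). The transducer Smo had a log2 fold change of 0.85 (adjusted p = 0.0323), which flipped to -0.69 per unit of pan-fibroblast RNA. Smo did not pass with DESeq2-type size factors, with no filter or without 5 of the 6 libraries (adjusted p up to 0.145 over all alternatives). The gene that fell was Foxl1, given above.

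In the Notch list, 2 of 12 genes rose (16.1% of all genes), 5 fell (14.3% of all genes) and 5 did not pass. Hes1, a repressor induced by Notch and other signals, stood at 1065, 1162 and 1228 CPM in Rspo3+ and 358, 398 and 354 CPM in Rspo3- libraries (log2 fold change 1.64 ± 0.23 SE, adjusted p = 2.21e-05). Notch3, a receptor of mural cells, had 0.444, 1.29 and 0.583 CPM in Rspo3+ and 15.2, 8.84 and 9.84 CPM in Rspo3- libraries (log2 fold change -3.88 ± 0.74 SE, adjusted p = 0.000486). Their groups did not overlap. Per unit of pan-fibroblast RNA Hes1 did not pass (0.09, adjusted p = 0.744). Without Rspo3- library 1 or 3, Hes1 alone of the list rose.

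Matrix genes rose widely. Of 13 fibrillar and network collagens, 6 rose, 1 fell and 6 did not pass, and of 22 proteoglycans and matrix glycoproteins 13 rose, 1 fell and 8 did not pass. Col8a1, a short-chain collagen of vessel walls, stood at 568, 525 and 395 CPM in Rspo3+ and 27.6, 29.7 and 30.6 CPM in Rspo3- libraries (log2 fold change 4.08 ± 0.55 SE, adjusted p = 1.51e-05). Col1a2, a chain of type I collagen, had 14464, 14429 and 10155 CPM in Rspo3+ and 2878, 2294 and 2184 CPM in Rspo3- libraries (log2 fold change 2.41 ± 0.52 SE, adjusted p = 0.00154). Col3a1, of type III collagen, was among the most abundant transcripts at 39019, 39570 and 27499 CPM in Rspo3+ and 8878, 6993 and 6362 CPM in Rspo3- libraries (log2 fold change 2.25 ± 0.54 SE, adjusted p = 0.00343). Col14a1, which decorates collagen fibrils, had a log2 fold change of 2.53 (adjusted p = 0.00161). In these collagens Rspo3+ library 3 was the lowest of its group and still above every Rspo3- library. Col12a1, another fibril-associated collagen, went the other way at 33.0, 28.2 and 22.3 CPM in Rspo3+ and 122, 64.1 and 113 CPM in Rspo3- libraries (log2 fold change -1.84 ± 0.50 SE, adjusted p = 0.00805). After rescaling to pan-fibroblast genes, Col8a1 still rose (2.51) and the other 5 collagens were positive without passing. Fitted on the 6 compared libraries alone, 11 collagens rose in place of 6. Col3a1 was named after its values were seen.

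Among the glycoproteins, Sparc, a collagen-binding protein, stood at 12784, 11125 and 12242 CPM in Rspo3+ and 2855, 2326 and 2178 CPM in Rspo3- libraries (log2 fold change 2.30 ± 0.27 SE, adjusted p = 3.75e-06). Its relative Sparcl1 had 1310, 1333 and 1566 CPM in Rspo3+ and 321, 345 and 319.6 CPM in Rspo3- libraries (log2 fold change 2.09 ± 0.28 SE, adjusted p = 1.48e-05). Among small leucine-rich proteoglycans, Ogn had 1748, 1624 and 1549.8 CPM in Rspo3+ and 248, 199 and 205 CPM in Rspo3- libraries (adjusted p = 0.000376), Lum had 6109, 6402 and 7511 CPM in Rspo3+ and 878, 955 and 683 CPM in Rspo3- libraries (adjusted p = 0.000983), and Dcn had 32360, 33519 and 40072 CPM in Rspo3+ and 6194, 7069.9 and 4470.5 CPM in Rspo3- libraries (adjusted p = 0.00175). Omd, of the same family, was far scarcer at 29.5, 21.0 and 28.0 CPM in Rspo3+ and 2.63, 1.49 and 0.973 CPM in Rspo3- libraries (log2 fold change 3.93 ± 0.98 SE, adjusted p = 0.00457). None of these overlapped between the groups. Of the same family, Podn also rose (adjusted p = 0.0156), whereas Fmod (adjusted p = 0.0798), Prelp (adjusted p = 0.107), Aspn (adjusted p = 0.17) and Bgn (adjusted p = 0.207) did not pass. Tnc, an adhesion-modulating glycoprotein, fell to 91.4, 93.3 and 41.8 CPM in the Rspo3+ libraries, against 419, 294 and 292 CPM in the Rspo3- libraries (log2 fold change -2.15 ± 0.55 SE, adjusted p = 0.00557). Per unit of pan-fibroblast RNA, 5 of the 13 still rose, 4 were positive without passing and 4 were negative, among them Fbln2, an elastic fiber protein (-0.11, against 1.44 per library total). Ogn, Lum, Dcn, Omd, Podn, Fmod, Prelp, Aspn and Bgn were named after their values were seen.

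In the basement membrane list, 3 of 15 were higher, 2 lower and 10 did not pass. This is close to the shares of all genes, 16.1% higher and 14.3% lower. Nid1 and Nid2, paralogs that link laminin to collagen IV, moved apart. Nid1 had 1292, 1209 and 728 CPM in Rspo3+ and 444, 304 and 351 CPM in Rspo3- libraries (log2 fold change 1.55 ± 0.31 SE, adjusted p = 0.000679), and Nid2 had 29.0, 32.1 and 16.9 CPM in Rspo3+ and 114, 74.0 and 69.9 CPM in Rspo3- libraries (log2 fold change -1.73 ± 0.29 SE, adjusted p = 0.00016). Lama5, the alpha chain of epithelial laminins, fell to 1.86, 2.47 and 1.36 CPM in the Rspo3+ libraries, against 7.16, 7.11 and 7.30 CPM in the Rspo3- libraries (log2 fold change -1.92 ± 0.37 SE, adjusted p = 0.000509). Relative to pan-fibroblast RNA, Nid1 turned to -0.006 and the other 2 genes that rose were negative too.

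Matrix proteases and inhibitors mostly rose, 9 of 14, with 1 that fell and 4 that did not pass. Timp2, an inhibitor of metalloproteinases, stood at 2663, 2814 and 2838 CPM in Rspo3+ and 816, 784 and 625 CPM in Rspo3- libraries (log2 fold change 1.90 ± 0.24 SE, adjusted p = 7.68e-06), and the aggrecanase-family protease Adamts1 at 1332, 1536 and 1007 CPM in Rspo3+ and 388, 337 and 256 CPM in Rspo3- libraries (log2 fold change 1.98 ± 0.32 SE, adjusted p = 9.69e-05). The stromelysins Mmp3 and Mmp10, related enzymes, went opposite ways. Mmp3 had 579, 851 and 1155 CPM in Rspo3+ and 73.5, 101 and 66.3 CPM in Rspo3- libraries (log2 fold change 3.42 ± 0.70 SE, adjusted p = 0.000963), whereas Mmp10 had 78.2, 103 and 82.3 CPM in Rspo3+ and 887, 1295 and 739 CPM in Rspo3- libraries (log2 fold change -3.47 ± 0.46 SE, adjusted p = 1.43e-05). Both were apart in every library. Mmp3 still rose per unit of pan-fibroblast RNA (1.90), the others of the 9 did not pass in that direction, and 3 of these were negative. Mmp3 was named after its values were seen.

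Guidance ligands rose in 6 of 14 cases and fell in 3, and 5 did not pass. Ntn4, a netrin of basement membranes, stood at 131, 151 and 134 CPM in Rspo3+ and 17.5, 29.1 and 20.7 CPM in Rspo3- libraries (log2 fold change 2.63 ± 0.25 SE, adjusted p = 4.15e-07). Sema3d, a secreted semaphorin, had 55.6, 65.7 and 39.9 CPM in Rspo3+ and 3.95, 5.37 and 6.32 CPM in Rspo3- libraries (log2 fold change 3.37 ± 0.40 SE, adjusted p = 4.15e-06). Efna1, a ligand of EphA receptors, went the other way at 7.59, 10 and 15.3 CPM in Rspo3+ and 99.5, 111 and 157 CPM in Rspo3- libraries (log2 fold change -3.48 ± 0.41 SE, adjusted p = 3.84e-06). The groups were apart for all 3. Ntn4 (1.07) and Sema3d (1.78) still rose per unit of pan-fibroblast RNA, and the other 4 that rose were positive without passing.

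Among 18 stromal transcription factors, 4 rose (16.1% of all genes), 6 fell (14.3% of all genes) and 8 did not pass. The odd-skipped paralogs moved apart: Osr1 stood at 133, 116 and 162 CPM in Rspo3+ and 23.1, 19.5 and 17.9 CPM in Rspo3- libraries (log2 fold change 2.77 ± 0.33 SE, adjusted p = 3.68e-06), and Osr2 at 1.70, 2.31 and 3.55 CPM in Rspo3+ and 30.2, 35.4 and 33.7 CPM in Rspo3- libraries (log2 fold change -3.71 ± 0.70 SE, adjusted p = 0.000453). Both separated every library. Ebf1, known in fibroblasts and B cells, had 105, 98.4 and 114 CPM in Rspo3+ and 41.5, 35.5 and 46.3 CPM in Rspo3- libraries (log2 fold change 1.36 ± 0.18 SE, adjusted p = 9.3e-06), and Klf4 had 305, 199 and 196 CPM in Rspo3+ and 94.2, 79.5 and 88.3 CPM in Rspo3- libraries (log2 fold change 1.42 ± 0.23 SE, adjusted p = 0.000124). On the pan-fibroblast scale, Osr1 still rose (1.24), and Ebf1 and Klf4 turned to -0.19 and -0.14. Without Rspo3+ library 1, 3 factors fell in place of 6.

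Immediate early genes are switched on rapidly when cells receive a signal. Of 16 immediate early and heat shock genes 12 rose and 4 did not pass (median log2 fold change 1.53). The upstream regions of 4 that rose are shown because the genes moved together and carry a shared element, TGACG, the core to which CREB and ATF proteins are known to bind. Each sequence is the 250 bases before the gene's start on GRCm38.p6 (RefSeq), written 5′ to 3′ on the gene's strand, with TGACG or its reverse complement CGTCA in capitals. They cover chr12:85473640-85473889 (plus strand) for Fos, chr7:19310046-19310295 (minus) for Fosb, chr8:84978749-84978998 (minus) for Junb and chr15:101266596-101266845 (plus) for Nr4a1.
Fos: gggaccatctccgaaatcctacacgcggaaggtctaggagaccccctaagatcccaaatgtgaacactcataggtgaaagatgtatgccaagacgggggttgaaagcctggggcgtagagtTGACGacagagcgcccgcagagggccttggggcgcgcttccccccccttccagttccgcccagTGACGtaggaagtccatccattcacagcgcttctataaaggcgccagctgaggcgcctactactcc
Fosb: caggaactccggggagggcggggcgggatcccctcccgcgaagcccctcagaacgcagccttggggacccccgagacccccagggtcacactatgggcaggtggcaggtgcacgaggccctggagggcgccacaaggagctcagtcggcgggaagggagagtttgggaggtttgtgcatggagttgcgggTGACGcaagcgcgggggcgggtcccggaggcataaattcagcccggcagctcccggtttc
Junb: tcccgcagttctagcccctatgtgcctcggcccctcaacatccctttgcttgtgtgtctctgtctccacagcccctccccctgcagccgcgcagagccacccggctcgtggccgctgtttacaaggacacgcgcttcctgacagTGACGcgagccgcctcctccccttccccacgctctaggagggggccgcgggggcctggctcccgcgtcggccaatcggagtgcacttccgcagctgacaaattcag
Nr4a1: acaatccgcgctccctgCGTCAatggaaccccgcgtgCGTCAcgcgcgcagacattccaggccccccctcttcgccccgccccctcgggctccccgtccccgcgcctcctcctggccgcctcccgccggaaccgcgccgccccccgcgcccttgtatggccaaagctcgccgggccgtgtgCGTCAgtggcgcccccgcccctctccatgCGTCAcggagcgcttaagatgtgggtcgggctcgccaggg

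The element lies 129 to 125 and 66 to 62 bases before the start of Fos, 60 to 56 before Fosb and 106 to 102 before Junb. Upstream of Nr4a1 it occurs 4 times on the opposite strand, nearest the start at 40 to 36 bases. Searched on both strands of the 250 bases, it was found for 7 of the 13 list genes with a promoter that were examined (53.8%). Among the 9 of these that rose it was found for 7 (Atf3, Dnajb1, Egr2, Fos, Fosb, Junb and Nr4a1). List genes on 1 chromosome were left out of the 13, whereas the share over all genes had no such exclusion. Over all 27025 genes of the table the share was 19.8%. The CArG box of serum response factor was found within the 250 bases for 1 of the 13 (Egr2), and for 1.62% of all genes. Sites further upstream were not searched. The motif was chosen after the sequences were seen, and a match is a description of letters, not a binding site.

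Fos stood at 11934, 11481 and 12132 CPM in the Rspo3+ libraries, against 3002, 3485 and 2724 CPM in the Rspo3- libraries (log2 fold change 1.95 ± 0.21 SE, adjusted p = 1.26e-06). Egr1, a zinc finger factor of the same early response, had 12417, 14184 and 15833 CPM in Rspo3+ and 3159.6, 3842 and 3273 CPM in Rspo3- libraries (log2 fold change 2.05 ± 0.22 SE, adjusted p = 1.44e-06). Nr4a1, an orphan nuclear receptor, had 1907, 2780.2 and 2786 CPM in Rspo3+ and 469, 650.4 and 488 CPM in Rspo3- libraries (log2 fold change 2.22 ± 0.25 SE, adjusted p = 1.72e-06). The lowest Rspo3+ library of each was above the highest Rspo3- library. Junb had 5108, 6540.5 and 7273 CPM in Rspo3+ and 1765, 2403 and 2036 CPM in Rspo3- libraries (log2 fold change 1.61 ± 0.23 SE, adjusted p = 2.52e-05), and Fosb had 634, 607 and 410.3 CPM in Rspo3+ and 169, 145 and 168 CPM in Rspo3- libraries (log2 fold change 1.78 ± 0.25 SE, adjusted p = 2.56e-05). The inducible heat shock genes Hspa1a and Hspa1b did not pass and varied within both groups, from 1521 to 3572 CPM for Hspa1a in Rspo3+ and from 358 to 1493 CPM in Rspo3- libraries. After rescaling to pan-fibroblast genes, Nr4a1 still rose (0.67), 7 others were positive without passing and 4 were negative. The mitochondrial share of counts also differed between the groups, as given above, and its part was not tested. Junb, Fosb and the Hspa1 genes were named after their values were seen.

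Of 15 interferon response genes 1 rose, 5 fell and 9 did not pass (median log2 fold change -0.06). Irf7, a transcription factor of the response, stood at 38.4, 41.6 and 40.9 CPM in Rspo3+ and 90.1, 66.2 and 90.9 CPM in Rspo3- libraries (log2 fold change -1.03 ± 0.18 SE, adjusted p = 0.000177), and Ifit1 at 22.7, 23.0 and 27.1 CPM in Rspo3+ and 65.1, 43.5 and 59.3 CPM in Rspo3- libraries (log2 fold change -1.21 ± 0.34 SE, adjusted p = 0.0103). Zbp1, a sensor of nucleic acids, had a log2 fold change of -0.82 (adjusted p = 0.0115) and lost its call without Rspo3- library 1 (adjusted p up to 0.0890 over all alternatives). The factor Irf1 rose by 0.64 in log2 (adjusted p = 0.0203), but it did not pass without 4 of the 6 libraries or with DESeq2-type size factors (adjusted p up to 0.112), and its sign flipped per unit of pan-fibroblast RNA (-0.93). The genes that fell were 3, 3 and 2 in place of 5 without Rspo3+ library 1, Rspo3+ library 2 and Rspo3- library 1. For the cell cycle list, edgeR, DESeq2 and limma voom each gave 0 of 15 genes in either direction. At an unadjusted p below 0.05 edgeR gave 2 that were higher.

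**Figure D2:**
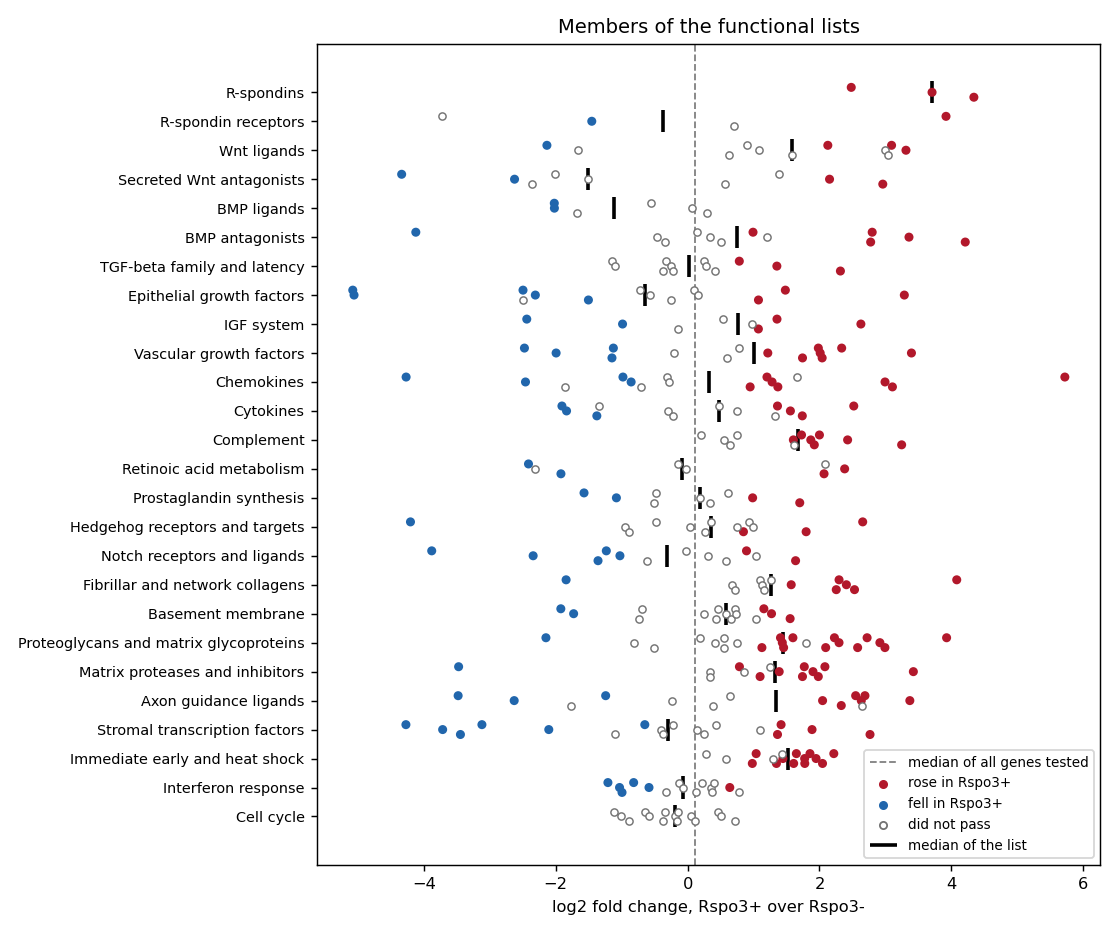
Log2 fold change (Rspo3+ over Rspo3-) of every tested member of the functional lists, with members that rose in red, fell in blue and did not pass as open circles, the list median as a bar and the median of all genes, 0.11, as a dashed line. The medians of R-spondins (3.71), complement (1.67), immediate early genes (1.53) and proteoglycans (1.45) lie to the right, those of BMP ligands (-1.12) and secreted Wnt antagonists (-1.51) to the left. The Wnt ligand median is 1.58, or 1.08 with the gene at 0 in 1 group at its bound. On the pan-fibroblast scale the proteoglycan and immediate early medians are -0.10 and 0.00.

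Markers of other cell types also differed between the fractions. Lymphatic endothelial genes rose in Rspo3+ cells despite the CD31- gate: 10 of 15 did, 1 fell and 4 did not pass. Mmrn1, a multimerin of lymphatic vessels, stood at 63.3, 242 and 79.5 CPM in Rspo3+ and 1.83, 0.744 and 2.27 CPM in Rspo3- libraries (log2 fold change 6.26 ± 0.68 SE, adjusted p = 1.47e-06). Lyve1, a hyaluronan receptor, had 29.4, 97.3 and 34.2 CPM in Rspo3+ and 1.94, 2.31 and 3.89 CPM in Rspo3- libraries (log2 fold change 4.30 ± 0.55 SE, adjusted p = 8.43e-06), and Prox1, the defining transcription factor, had 3.55, 10.6 and 3.06 CPM in Rspo3+ and 0.554, 0.578 and 0.486 CPM in Rspo3- libraries (log2 fold change 3.39 ± 0.48 SE, adjusted p = 2.68e-05). Rspo3+ library 2 was the highest for all 3 genes, and no library overlapped between the groups. The summed list was 695 to 1187 CPM in Rspo3+ and 513 to 606 CPM in Rspo3- libraries. Nts, a neuropeptide of lymphatic cells, was at 0 in every Rspo3- library and in Rspo3+ library 1, and was at least 13.6-fold higher over the Rspo3+ libraries, counted against a group floor of 3 counts. The gap-junction gene Gja1 fell, with 127, 167 and 169 CPM in Rspo3+ and 356, 379 and 293 CPM in Rspo3- libraries (log2 fold change -1.15 ± 0.19 SE, adjusted p = 0.000107). Relative to pan-fibroblast RNA, 8 of the 10 still rose. Lyve1, Prox1 and Nts were named after their values were seen.

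Blood and pan-endothelial genes were mostly higher in Rspo3+ cells, where Gpihbp1, Sox7 and Sox18 were scarce and Tek was not. Of the blood endothelial list, 7 of 14 rose, 1 fell and 6 did not pass, and of the pan-endothelial list 12 of 16 rose, 1 fell and 3 did not pass. Gpihbp1, which anchors lipoprotein lipase on capillaries, had 3.76, 8.85 and 4.76 CPM in Rspo3+ and 0, 0 and 0.0541 CPM in Rspo3- libraries, a ratio of 331-fold (counting interval 59.0 to 13112, adjusted p = 7.29e-07). Tek, the angiopoietin receptor, stood at 63.9, 73.2 and 65.5 CPM in Rspo3+ and 13.0, 3.80 and 9.19 CPM in Rspo3- libraries (log2 fold change 2.94 ± 0.31 SE, adjusted p = 1.08e-06). The endothelial transcription factors Sox7 and Sox18 had 2.95, 4.56 and 5.44 CPM and 2.14, 4.18 and 3.89 CPM in the Rspo3+ libraries, against 0.277, 0 and 0.162 CPM and 0, 0 and 0.270 CPM in the Rspo3- libraries (adjusted p = 4.61e-06 and adjusted p = 3.26e-05). These 4 genes did not overlap between groups. Esam, a junction protein, fell, with 5.53, 4.29 and 8.55 CPM in Rspo3+ and 17.6, 15.9 and 12.49 CPM in Rspo3- libraries (log2 fold change -1.32 ± 0.34 SE, adjusted p = 0.00574). So did the apelin receptor Aplnr (log2 fold change -1.76 ± 0.54 SE, adjusted p = 0.0173), which lost its call without Rspo3+ library 3 or Rspo3- library 1 (adjusted p up to 0.0687 over all alternatives).

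Mural cell genes fell in part. Of 10 pericyte genes, 6 fell, 1 rose and 3 did not pass. Cspg4, the proteoglycan NG2, stood at 17.4, 15.1 and 8.31 CPM in Rspo3+ and 96.6, 56.4 and 72.2 CPM in Rspo3- libraries (log2 fold change -2.46 ± 0.50 SE, adjusted p = 0.000896), and Cox4i2, a subunit of cytochrome oxidase, was 31.9-fold lower, with a counting interval of 10.6 to 158 (adjusted p = 0.000218). Steap4, a metalloreductase, rose to 43.1, 46.5 and 58.9 CPM in the Rspo3+ libraries, against 7.48, 11.8 and 15.4 CPM in the Rspo3- libraries (log2 fold change 2.10 ± 0.53 SE, adjusted p = 0.00482), and did not pass per unit of pan-fibroblast RNA (0.52, adjusted p = 0.388). Of 12 smooth muscle genes, Smtn rose (log2 fold change 0.62 ± 0.16 SE, adjusted p = 0.00629) and 11 did not pass. Smtn flipped to -0.93 per unit of pan-fibroblast RNA and lost its call without Rspo3+ library 3 (adjusted p up to 0.0651 over all alternatives). Fitted on the 6 compared libraries alone, 7 smooth muscle genes fell.

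Genes of enteric glia, neurons and mesothelium were lower in Rspo3+ cells. Of 9 glial genes 8 fell, with a summed level of 9.45 to 16.95 CPM in Rspo3+ and 204 to 315 CPM in Rspo3- libraries. Sox10, the glial transcription factor, stood at 0.242, 0.858 and 0.826 CPM in Rspo3+ and 20.5, 12.8 and 15.4 CPM in Rspo3- libraries (log2 fold change -4.66 ± 0.67 SE, adjusted p = 2.91e-05). The receptor Erbb3, which glia share with epithelium, fell as well (log2 fold change -5.72 ± 0.83 SE, adjusted p = 3.54e-05). Of 10 neuronal genes 5 fell, led by Uchl1, a neuronal ubiquitin hydrolase (log2 fold change -3.21 ± 0.54 SE, adjusted p = 0.000145). Without 1 of the 6 libraries, 1 to 3 neuronal genes fell. Of 7 mesothelial genes 6 fell. Wt1 and Lrrn4 were at 0 in all Rspo3+ libraries and at least 12.5-fold and 89.6-fold lower there, and Upk1b had 0.0404, 0 and 0.243 CPM in Rspo3+ and 5.92, 10.5 and 7.78 CPM in Rspo3- libraries (log2 fold change -6.32 ± 1.38 SE, adjusted p = 0.00155). The median log2 fold change of the list was -6.42, or -6.32 with Wt1 and Lrrn4 at their bounds. The keratin Krt19, shared with epithelium, fell (log2 fold change -4.88 ± 1.24 SE, adjusted p = 0.00517). Rspo1, which mesothelium also makes, rose as given above. Lrrn4 was named after its values were seen. The part of these cells in the falls of other lists was not tested.

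All 14 enterocyte genes fell, by log2 fold changes of -6.53 to -5.20 (median -6.01). Lct, the brush border lactase, stood at 4.44, 3.75 and 5.59 CPM in Rspo3+ and 408, 240.3 and 632 CPM in Rspo3- libraries (log2 fold change -6.53 ± 0.58 SE, adjusted p = 1.78e-07). Anpep, an aminopeptidase, had 9.65, 12.2 and 14.5 CPM in Rspo3+ and 405, 319 and 615 CPM in Rspo3- libraries (log2 fold change -5.20 ± 0.41 SE, adjusted p = 6.17e-08), and Sis, the sucrase-isomaltase, had 6.22, 15.2 and 15.3 CPM in Rspo3+ and 851, 779 and 1262 CPM in Rspo3- libraries (log2 fold change -6.30 ± 0.76 SE, adjusted p = 4.65e-06). In all 3 genes Rspo3- library 3 was the highest. All 7 MHC class II genes fell too, with a summed level of 215 to 421 CPM in Rspo3+ and 1905 to 2368 CPM in Rspo3- libraries. H2-DMb1, which loads peptides, had 7.76, 11.4 and 10.5 CPM in Rspo3+ and 55.2, 63.6 and 66.7 CPM in Rspo3- libraries (log2 fold change -2.65 ± 0.47 SE, adjusted p = 0.000233). Its partner H2-DMa and the class II regulator Ciita had log2 fold changes of -2.98 (adjusted p = 0.000498) and -3.27 (adjusted p = 0.00238). Without Rspo3+ library 1, 4 of the 7 fell.

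Other epithelial and immune lists gave few calls. Of 10 enteroendocrine and tuft genes, the hormone genes Sct (log2 fold change -4.48 ± 1.10 SE, adjusted p = 0.00385) and Chga (adjusted p = 0.0156, lost without Rspo3+ library 1 or 2) fell, so that 1 fell in those fits. Of 9 crypt genes, Lgr5 and Smoc2 rose. Smoc2, a matricellular protein made by stem cells and by fibroblasts, had 606, 702 and 705 CPM in Rspo3+ and 238, 296 and 170.2 CPM in Rspo3- libraries (log2 fold change 1.52 ± 0.49 SE, adjusted p = 0.0234), lost its call without Rspo3+ library 2 or 3 or Rspo3- library 1 or 3, and lay at -0.01 per unit of pan-fibroblast RNA. In goblet and Paneth genes, edgeR and limma voom gave 0 calls of 12, DESeq2 gave 2 lower, and 2 were lower at an unadjusted p below 0.05. Their summed level ran from 10.99 to 445 CPM over the Rspo3+ and from 30.3 to 387 CPM over the Rspo3- libraries. In T, NK and innate lymphoid genes, edgeR, DESeq2 and limma voom gave 0 of 12, and none had an unadjusted p below 0.05. The leukocyte gene Ptprc, which encodes the CD45 of the gate, had 4.08, 8.64 and 6.12 CPM in Rspo3+ and 5.16, 6.94 and 3.95 CPM in Rspo3- libraries (adjusted p = 0.891, named after its values were seen). Of 12 macrophage and dendritic genes Itgam fell (log2 fold change -2.98 ± 1.07 SE, adjusted p = 0.0411), and of 10 B and plasma cell genes Xbp1, also used by other secretory cells, rose (log2 fold change 0.63 ± 0.18 SE, adjusted p = 0.0135) with a flipped sign per unit of pan-fibroblast RNA (-0.92). Itgam lost its call without Rspo3+ library 1 or 3 or Rspo3- library 2 or 3, and Xbp1 without Rspo3+ library 3 or Rspo3- library 1 or 3 (adjusted p up to 0.129 and 0.228 over all alternatives). Xbp1 also lost its call with DESeq2-type size factors and in the fit on the 6 compared libraries. Gja1 was also the gene that fell among 5 of interstitial cells of Cajal. Of 5 erythroid genes, and of the 1 mast cell gene that passed the filter on low counts, edgeR, DESeq2 and limma voom called 0, and 0 had an unadjusted p below 0.05.

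**Figure D3:**
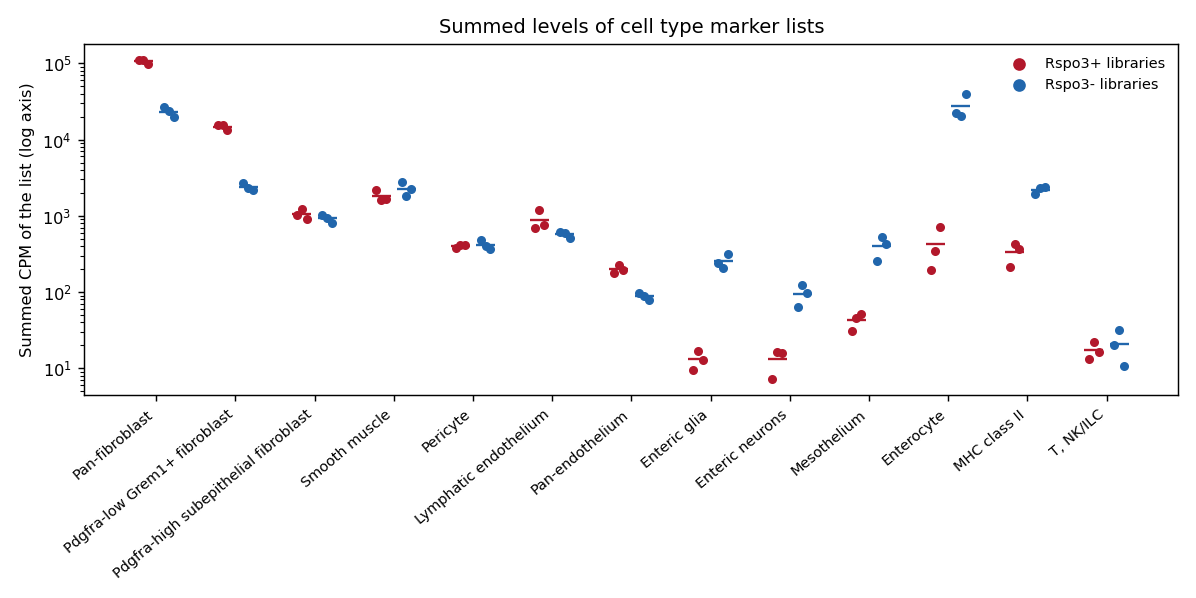
Summed CPM of cell type marker lists (log axis) in each small intestinal CD31- library, Rspo3+ (red, left) beside Rspo3- (blue, right), with a bar at each group's mean (n = 3 each). Pan-fibroblast sums are 97743 to 110870 CPM in Rspo3+ and 19662 to 26865 CPM in Rspo3- libraries, whereas enterocyte, glial, mesothelial and MHC class II sums are higher in every Rspo3- library.

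The largest single changes were taken by a fixed rule among genes of at least 10 CPM in the higher group with no overlap between libraries. The largest rises were led by Igkv8-27, an immunoglobulin variable segment with near-identical relatives and an uncertain level, at 49.4, 9.87 and 36.1 CPM in Rspo3+ and 0, 0 and 0.162 CPM in Rspo3- libraries. Its ratio was 666-fold (counting interval 228 to 3234, adjusted p = 0.0396), and the call was lost with limma voom and without any library except Rspo3+ library 2 (adjusted p up to 0.122 over all alternatives). The summed B and plasma cell list was 7172 to 10648 CPM in Rspo3+ and 3713 to 5639 CPM in Rspo3- libraries, although cells were sorted as CD45-, and its part was not tested. The adhesion receptor Adgrg3 was 123-fold higher, with 9.13, 28.3 and 14.9 CPM in Rspo3+ and 0, 0.413 and 0.162 CPM in Rspo3- libraries. Il31ra, the interleukin 31 receptor, was 106-fold higher, and Epyc, a small leucine-rich proteoglycan, was 104-fold higher, at 54.6, 48.4 and 36.8 CPM in Rspo3+ and 0.138, 0.992 and 0.595 CPM in Rspo3- libraries. Gdf6, a ligand of the BMP family, stood at 174, 178 and 165 CPM in Rspo3+ and 3.53, 2.81 and 2.97 CPM in Rspo3- libraries (log2 fold change 5.78 ± 0.90 SE, adjusted p = 6.9e-05), so a BMP family ligand outside the list above rose. Cpz, a carboxypeptidase that binds Wnts, had 150.1, 139 and 139 CPM in Rspo3+ and 4.01, 1.98 and 3.24 CPM in Rspo3- libraries (log2 fold change 5.52 ± 0.85 SE, adjusted p = 6.49e-05). Cldn10, a claudin, had 116, 130.3 and 154 CPM in Rspo3+ and 1.77, 5.29 and 2.70 CPM in Rspo3- libraries (log2 fold change 5.39 ± 0.74 SE, adjusted p = 1.89e-05). The others were Tdo2, a tryptophan-degrading enzyme (70.9-fold), Mmrn1 (69.0-fold) and Ccl21a (46.3-fold). In CD31+ Rspo3+ cells of the small intestine, Adgrg3, Mmrn1 and Ccl21a averaged 1706, 14152 and 9181.5 CPM. Each of the other leading rises averaged at most 1.18 CPM there. The part of endothelial cells in the rises of Adgrg3, Mmrn1 and Ccl21a was not tested.

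The largest falls included genes of absorptive epithelium. Pof1b, an actin-binding protein of epithelia, was lower by a ratio of 939.9-fold (counting interval 168 to 37165), with 0, 0.0536 and 0 CPM in Rspo3+ and 14.8, 10 and 17.5 CPM in Rspo3- libraries. Slc5a8, a transporter of short-chain fatty acids, was lower by 375-fold (counting interval 104 to 3105), and Ugt2b36, a glucuronosyltransferase, by 367-fold (counting interval 101 to 3039). Trim40 was lower by 241-fold (counting interval 82.1 to 1171). The remaining ratios were 194 for Clec2e, 182 for Mfsd4b2, 153 for Pip5k1b, 130.3 for the neuropeptide Vip, 129 for Mettl7b and 121 for Naip1, an inflammasome receptor of epithelium and macrophages. Vip was uneven, at 1.04, 11.9 and 36.4 CPM in the Rspo3- libraries, and lost its call with limma voom and without any of the Rspo3+ libraries or Rspo3- library 3 (adjusted p up to 0.168 over all alternatives). The enterocyte sum of 20474 to 39305 CPM in the same libraries moved with these falls.

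Read per unit of pan-fibroblast RNA, the comparison narrows to genes whose rise exceeded the mean log2 change of the 14 pan-fibroblast genes. Those 14 genes themselves ranged from -0.29 to 3.00 in log2 per library total. Passing does not mark a gene as one of fibroblasts, since 8 lymphatic endothelial genes also rose on this scale. Rspo3, Grem1 and Ackr4 had log2 fold changes of 2.81 ± 0.24 SE, adjusted p = 9.7e-09, of 2.67 ± 0.66 SE, adjusted p = 0.00149, and of 2.90 ± 0.71 SE, adjusted p = 0.00137. Vegfd (1.83, adjusted p = 0.000169), Col8a1 (2.51, adjusted p = 0.000254) and Pcolce2 (2.27, adjusted p = 0.00188) were among the others that rose. Type I and III collagen did not pass on this scale, with Col1a1 at 0.75 ± 0.63 SE, adjusted p = 0.298 and Col3a1 at 0.71 ± 0.51 SE, adjusted p = 0.224. Neither did Fos (0.40 ± 0.21 SE, adjusted p = 0.0925) nor Junb (0.06 ± 0.24 SE, adjusted p = 0.841). Per library total Col1a1 had risen (log2 fold change 2.30 ± 0.67 SE, adjusted p = 0.0131), a call lost without Rspo3- library 2 or 3 (adjusted p up to 0.298 over all alternatives). Col1a1 was named after its values were seen. On this scale, genes that fell per library total fell further, since the median of all genes was -1.42.

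**Figure D4:**
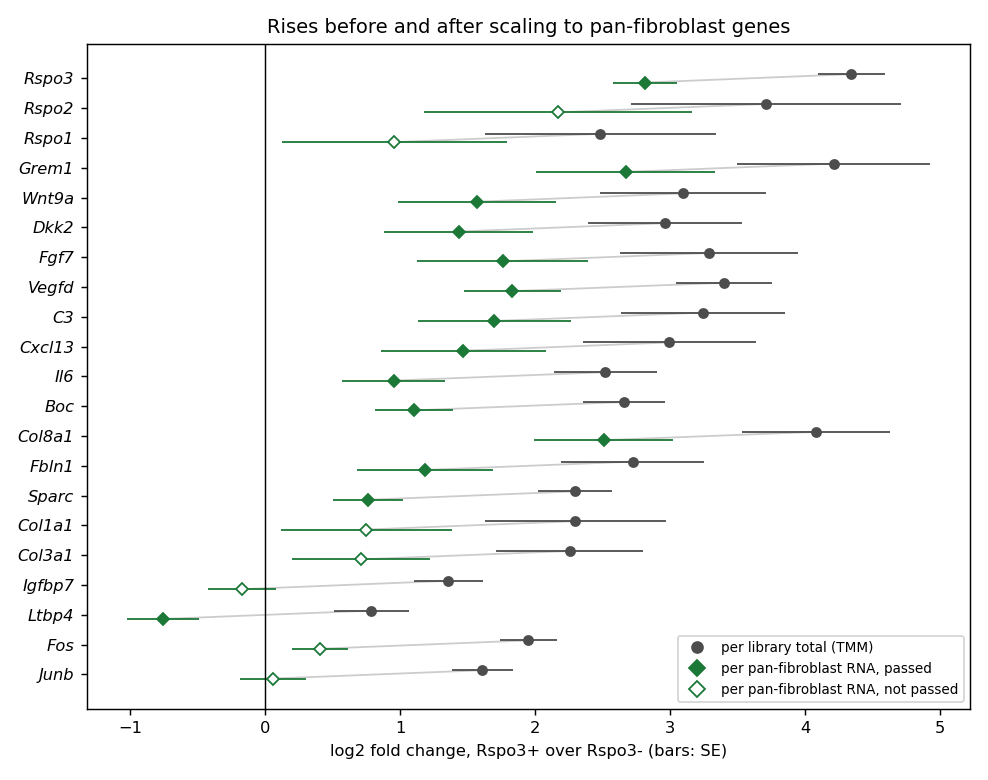
Log2 fold change with SE bars (Rspo3+ over Rspo3-) of genes that rose per library total (circles) and the same genes per unit of pan-fibroblast RNA (diamonds, filled where the test was passed). Rspo3 moves from 4.34 per library total to 2.81 and Grem1 from 4.21 to 2.67, whereas Col1a1, Col3a1, Fos and Junb no longer pass, and Igfbp7 and Ltbp4 cross zero.

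The colon gave the same comparison in separate libraries, where 4.80% of genes rose and 4.34% fell in CD31- Rspo3+ cells. Whether the small intestinal difference departed from the colonic one was tested as a difference of differences, which passed for 1597 genes (8.38%), positive for 3.48% and negative for 4.91%. That test was run per library total and not on the pan-fibroblast scale. Rspo3 and Grem1 did not pass this test (difference 0.43 ± 0.31 SE, adjusted p = 0.443 for Rspo3, and 0.63 ± 0.89 SE, adjusted p = 0.735 for Grem1). Among 165 functional-list genes that changed in the small intestine, 35 also had a tissue difference that passed (21.2%), against 1364 (23.5%) of all genes that changed there. In 21 of the 35 the colonic fold change had the same sign and in 14 the opposite one. Without 1 library at a time, 841 to 1817 genes had a tissue difference that passed, with 1046 and 1027 without small intestinal Rspo3+ library 1 and 2, 841 without Rspo3- library 3, and 1021 and 975 without colonic Rspo3+ library 3 and Rspo3- library 2.

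Several niche and positional genes differed by tissue. Osr1 averaged 137 ± 23.5 CPM in Rspo3+ and 20.1 ± 2.64 CPM in Rspo3- cells of the small intestine (mean ± SD, n = 3 each), and 54.0 ± 3.66 CPM in colonic Rspo3+ and 70.4 ± 16.2 CPM in colonic Rspo3- cells (difference 3.15 ± 0.45 SE, adjusted p = 0.000192). Osr2 was the reverse, at 2.52 ± 0.943 CPM in Rspo3+ and 33.1 ± 2.65 CPM in Rspo3- cells of the small intestine, and 45.0 ± 18.3 CPM in colonic Rspo3+ and 9.06 ± 7.52 CPM in colonic Rspo3- cells (difference -6.03 ± 0.96 SE, adjusted p = 0.000551). The paralogs thus changed in opposite directions in the small intestine, and the fold change of each had opposite signs in the 2 tissues. Cxcl13 averaged 657 ± 145 CPM in Rspo3+ and 82.6 ± 24.9 CPM in Rspo3- cells of the small intestine, and 21.9 ± 8.19 CPM in colonic Rspo3+ and 86.5 ± 31.7 CPM in colonic Rspo3- cells (difference 4.98 ± 0.89 SE, adjusted p = 0.00156). Ccl11 averaged 487 ± 13.9 CPM in Rspo3+ and 962 ± 155 CPM in Rspo3- cells of the small intestine, and 914 ± 239 CPM in colonic Rspo3+ and 390 ± 109.5 CPM in colonic Rspo3- cells (difference -2.21 ± 0.43 SE, adjusted p = 0.00285). Wnt2 averaged 8.86 ± 2.51 CPM in colonic Rspo3+ and 12.0 ± 0.691 CPM in colonic Rspo3- cells (difference 3.74 ± 0.81 SE, adjusted p = 0.00672), and Dkk2 3.47 ± 1.36 CPM in colonic Rspo3+ and 3.46 ± 2.30 CPM in colonic Rspo3- cells (difference 2.98 ± 0.80 SE, adjusted p = 0.0258). Angpt1 averaged 15.6 ± 5.21 CPM in colonic Rspo3+ and 24.2 ± 7.28 CPM in colonic Rspo3- cells (difference 2.67 ± 0.45 SE, adjusted p = 0.000984).

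By the rule that took the smallest adjusted p among genes that changed, the tissue difference was led by genes that fell in the small intestine and did not pass in the colon. Acsl5, a fatty acid ligase, stood at 136, 141 and 153 CPM in Rspo3+ and 1222, 1207 and 1766 CPM in Rspo3- libraries of the small intestine, and averaged 116 ± 17.4 CPM in colonic Rspo3+ and 107 ± 11.7 CPM in colonic Rspo3- cells (difference -3.40 ± 0.24 SE, adjusted p = 1.65e-07). The others were Tle4, a Groucho corepressor (-2.72 ± 0.21 SE, adjusted p = 3.78e-07), Bpnt1, a nucleotidase (-3.40 ± 0.28 SE, adjusted p = 7.75e-07), Slc25a15, a mitochondrial ornithine carrier (-3.71 ± 0.31 SE, adjusted p = 7.75e-07), and Cndp2, a dipeptidase (-3.65 ± 0.32 SE, adjusted p = 1.4e-06). Acsl5 and Cndp2 are known in absorptive epithelium, and the enterocyte list gave 5 falls of 14 in the colon, against 14 in the small intestine. Their part in the tissue difference was not tested.

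**Figure D5:**
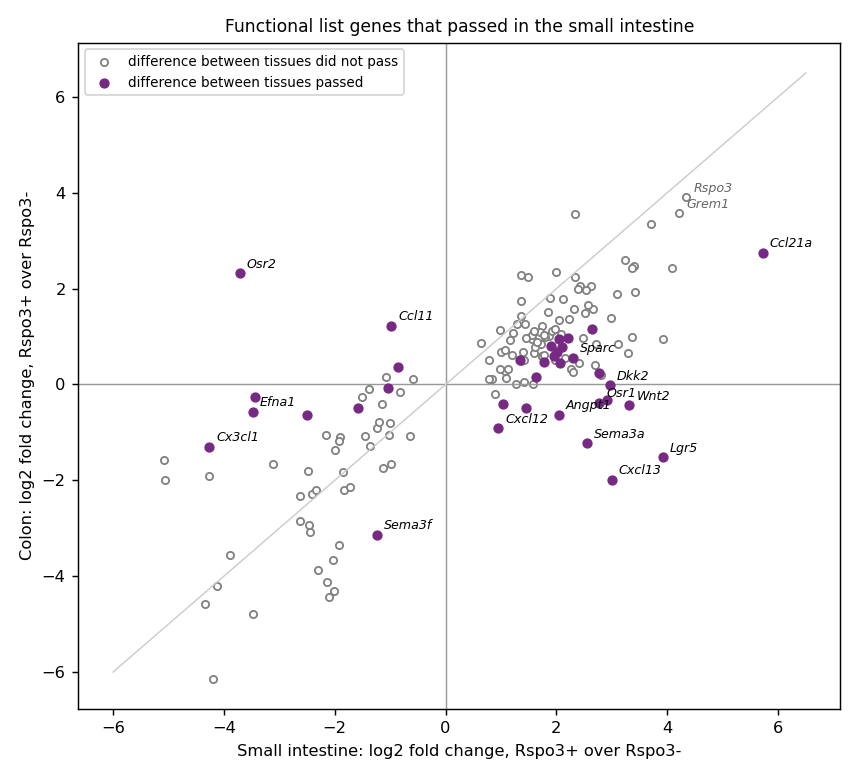
Log2 fold change (Rspo3+ over Rspo3-) in the small intestine (x axis) and in the colon (y axis) of the functional-list genes that passed in the small intestine, with filled points where the difference between tissues passed and the diagonal marking equal change. Rspo3 and Grem1 lie near the diagonal, Osr2 (-3.71 and 2.32) and Cxcl13 (2.99 and -1.98) lie in opposite quadrants.

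In CD31+ cells of the small intestine, 9.23% of genes rose and 10.8% fell in Rspo3+ cells. The difference of differences between CD31- and CD31+ cells passed for 4620 genes (24.3%), positive for 13.1% and negative for 11.1%. Cd34 had a log2 fold change of 2.26 in CD31- cells and of -4.06 ± 0.26 SE in CD31+ cells (difference 6.31 ± 0.36 SE, adjusted p = 1.09e-09). Ly6c1 averaged 16.4 ± 6.44 CPM in Rspo3+ and 2017 ± 636 CPM in Rspo3- cells of the CD31+ gate (difference 9.37 ± 0.50 SE, adjusted p = 5.09e-10), and Ly6a 22.7 ± 8.05 CPM in Rspo3+ and 1416 ± 471 CPM in Rspo3- cells of the CD31+ gate (difference 7.98 ± 0.47 SE, adjusted p = 1.49e-09). The actin regulator Swap70 and the metalloprotease Adam15 also rose in CD31- and fell in CD31+ Rspo3+ cells (differences 4.52 ± 0.22 SE, adjusted p = 2.99e-10, and 5.05 ± 0.30 SE, adjusted p = 1.49e-09). On the pan-fibroblast scale the rises of Swap70 (0.25, adjusted p = 0.215), Adam15 (0.064, adjusted p = 0.790) and Ly6a (0.50, adjusted p = 0.122) in CD31- cells did not pass. Those of Cd34 (0.73, adjusted p = 0.0098) and Ly6c1 (0.89, adjusted p = 0.0123) still did. The differences between gates were not refitted on that scale. Rspo3 itself did not pass this test (difference 0.10 ± 0.31 SE, adjusted p = 0.879).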

How the data were processed

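RNA was extracted with Qiagen RNeasy and libraries were made from amplified cDNA with SMART-Seq v4, per the labels' protocols. The authors' deposited table holds estimated counts per gene for 24 libraries, with Salmon 1.3.0, R 4.0.1 and mm10 named in the submitters' processing notes. The kit does not mark strand, so overlapping and antisense genes cannot be told apart, and genes with near-identical copies are uncertain. The authors' second deposited table holds log2(TPM + 1) values, which were turned back to TPM and used only to compare levels between genes. Gene names came from GENCODE M21 and matched 54096 of 54418 IDs, and the release the authors used is not given in the sources used here.

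Estimated counts were rounded and fitted with edgeR 4.0.16 (R 4.3.3) over all 24 libraries in 8 groups of 3, with filterByExpr (minimum count 10, minimum total 15), TMM scaling and the quasi-likelihood test, and p-values were adjusted over all genes tested. Libraries were assigned by the tissue, CD31 and transgene signs of their column names, and their numbers give the column order only. Pairs of libraries of a group correlated at 0.943 to 0.960 (log2 CPM) and differed by more than counting noise. On simulated counts for 18355 genes, 34% of 2-fold and 59% of 4-fold changes were recovered, with 0% false among 93 calls. That simulation changed few genes, equally up and down, and held no shift in cell composition between groups. It therefore does not measure false calls in the real comparison. Alternatives were DESeq2 1.42.0, its size factors in edgeR (called RLE), limma 3.58.1 voom, no filter, a fit on the 6 compared libraries, scaling to 14 pan-fibroblast genes, and leaving out each library.

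The members and gene lists were chosen with earlier results of these data known. Genes named are, for each list, the 3 with the smallest adjusted p and the leading one of the opposite direction, the 10 largest rises and falls with a mean of at least 10 CPM in the higher group and no overlap, and the 5 leading genes of each difference of differences, with Rspo3, Grem1 and Pecam1. Others are marked as named after their values were seen. Some genes that the rule named are not reported here, and the counts of their lists include them.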

Additional observations from a re-analysis of the deposited data

Results flagged for a closer look

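The Rspo3+ against Rspo3- difference in CD31- cells departed from that of the colon, by a test of the difference between the tissues itself, for the genes given here as small intestine minus colon in log2. Among the leading genes these were Acsl5 (-3.40), Tle4 (-2.72), Bpnt1 (-3.40), Slc25a15 (-3.71) and Cndp2 (-3.65). In the Wnt and BMP lists they were Lgr5 (5.44), Wnt2 (3.74) and Dkk2 (2.98). Growth and vascular factors were Hbegf (-1.87), Pdgfd (1.34) and Angpt1 (2.67). Chemokines were Ccl21a (2.97), Cx3cl1 (-2.97), Cxcl13 (4.98), Cxcl16 (-1.21), Ccl11 (-2.21) and Cxcl12 (1.86). Enzymes and the Notch target were Dhrs3 (1.63), Ptgs1 (-1.09) and Hes1 (1.48). Matrix genes were Sparc (1.74), Sparcl1 (1.31), Ogn (3.24) and Timp2 (1.11). Guidance ligands were Ntn4 (1.47), Efna1 (-2.91), Sema3f (1.89) and Sema3a (3.77). Transcription factors were Osr1 (3.15), Osr2 (-6.03) and Prrx1 (-3.19), and Irf7 (-0.95) came from the interferon list. Immediate early genes were Fos (1.36), Egr1 (1.09), Nr4a1 (1.25), Jun (0.84), Fosb (1.31), Egr2 (1.45) and Egr3 (1.93). The tissue differences were taken per library total and were not refitted on the pan-fibroblast scale. On that scale the small intestinal rises of Fos (0.40), Egr1 (0.50) and Fosb (0.21) did not pass, and that of Nr4a1 (0.67) did. Jun (-0.21), Egr2 (-0.51) and Egr3 (-0.11) turned negative there. The pan-fibroblast list gave 2 rises of 14 in the colon, against 8 in the small intestine, and its part was not tested. The difference departed from that of CD31+ cells, as CD31- minus CD31+ in log2, for Swap70 (4.52), Ly6c1 (9.37), Cd34 (6.31), Adam15 (5.05) and Ly6a (7.98).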

How the results depend on the processing

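Against 3064 genes that rose and 2732 that fell, DESeq2 gave 2687 and 3310, DESeq2-type size factors 2329 and 3054, no filter 2170 and 2552, limma voom 3554 and 3181, and a fit on the 6 compared libraries 2559 and 3742. That fit moved the share of calls that were rises from 52.86% to 40.61%, and leaving out Rspo3+ library 3 moved it to 39.08%. Scaling to pan-fibroblast genes gave 226 rises and 12788 falls, with 1.737% rises, and DESeq2-type size factors shifted the median log2 fold change of all genes by -0.11. Without 1 library at a time, 1687 to 2598 genes rose and 2141 to 2630 fell, 841 to 1817 differed from the colon and 3670 to 4420 from CD31+ cells. Among single genes, Bmp4 turned negative with DESeq2 and its size factors (-0.0509 in each) and in the fit on the 6 libraries (-0.0982), and was -0.1769 to 0.1284 without 1 library. Pecam1 was -0.0098 in that fit and -0.0872 to 0.3248 without 1 library. Among the genes followed by name through each setting, scaling to pan-fibroblast genes turned 22 negative: Bmp4 (-1.46), Pecam1 (-1.41), Cxcl12 (-0.57), Ebf1 (-0.19), Fbln2 (-0.11), Fstl1 (-0.53), Fstl3 (-0.52), Igf1 (-0.56), Igfbp7 (-0.17), Il33 (-0.19), Irf1 (-0.93), Klf4 (-0.14), Ltbp3 (-0.19), Ltbp4 (-0.76), Nid1 (-0.0060), Pdgfra (-0.77), Sfrp1 (-0.16), Smo (-0.69), Smoc2 (-0.0126), Smtn (-0.93), Wnt5a (-0.63) and Xbp1 (-0.92). Counts of list members that rose or fell moved by over 1.5 times in 21 cases in the fit on the 6 libraries (20 larger, 1 smaller), 13 with limma voom (12 larger), 8 with DESeq2-type size factors (4 larger), 5 with DESeq2 and 3 with no filter (all larger), 67 on the pan-fibroblast scale (36 larger) and 69 without 1 library (3 larger). In the fit on the 6 libraries 9 neuronal genes fell in place of 5, 8 epithelial growth factors in place of 5, and 5 Wnt ligands rose in place of 3. The cause of these changes was not tested. No paired analysis was possible because the column names carry no replicate number. Genes of few counts were limited by depth, as with Lgr5, Gpihbp1 and Cox4i2, whose counting intervals are wide.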
